A study of Mus musculus with 8 samples.

Results

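The genes described are the mouse Wnt ligands (Wnt), the Frizzled receptors (Fzd) and 2 families of secreted inhibitors, the secreted frizzled-related proteins (Sfrp) and the Dickkopf proteins (Dkk). They were taken from the deposited expression table by symbol, as every gene named Wnt, Fzd, Sfrp or Dkk followed by a number and, for Wnt, an optional letter a or b. This gave 37 of the 33504 genes in the table, of which 19 were Wnt, 10 Fzd, 4 Sfrp and 4 Dkk genes. Poly(A)-selected RNA was measured in 8 sorted mouse cell libraries on a C57BL/6J background. The abbreviation HSC denotes a hematopoietic stem cell. The pre-HSC group held 3 libraries from embryonic day 11.5, and the FL-HSC group held 2 libraries from embryonic day 14.5, where FL is read as fetal liver. The ex-HSC group held 3 libraries whose stage was labelled in vitro. They were read as cells from the 4-day culture that the protocols describe, which reaggregates embryonic cells after sorting with OP9 cells, a mouse bone marrow stromal line, in medium with SCF, IL-3 and Flt3L. The protocols also mention cultures on Akt-EC cells, and the labels do not say which culture gave these libraries. Conceptuses came from C57BL/6J females mated with males that were wild type or carried the Ly6a-GFP transgene of B6.Cg-Tg(Ly6a-GFP)G5Dzk/J. Which libraries carried the transgene, the sort gates, and whether each replicate was a litter or culture of its own are not given. The p-values therefore speak only of the spread among these 8 libraries.

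Wnt ligands are secreted, lipid-modified proteins that bind Frizzled receptors on the cell surface. With the co-receptors Lrp5 and Lrp6 they stabilise beta-catenin, which then acts with Tcf and Lef factors on transcription, and with other co-receptors they act on cell polarity and calcium. Sfrp proteins bind Wnt ligands outside the cell, and Dkk1 blocks Lrp5 and Lrp6. In the embryo, Wnt signalling takes part in the formation of blood stem cells from endothelium, and in fetal liver and bone marrow its strength affects how these cells are maintained.

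The values are FPKM, fragments scaled to transcript length and to the fragments mapped in the library, as the authors deposited them. Summed FPKM ran from 553227 to 745619 per library, and between 11682 and 12757 genes reached 1 FPKM. The number of genes above 0 was 24992 in ex-HSC replicate 2 and between 15622 and 18374 in the other 7 libraries. In that library 36 of the 37 genes were above 0, against 20 to 32 elsewhere, while 8 reached 1 FPKM, as many as in ex-HSC replicate 3. The protocols name a pair of DNase treatments and do not say which library had which, so their part in the values near 0 was not tested. The labelled cell types were compared with marker lists. All 12 blood markers averaged at least 1 FPKM in each group. They summed to between 276 and 400 FPKM in pre-HSC, between 813 and 1276 in ex-HSC and between 1124 and 1135 in FL-HSC. Coro1a was the highest of them in each group. Mecom and Gfi1 ran against these sums, with lower means in ex-HSC than in pre-HSC (7.73 against 23.7 and 13.8 against 16.4 FPKM). The 12 macrophage markers summed to between 272 and 1499 FPKM in pre-HSC, between 210 and 276 in ex-HSC and between 130 and 536 in FL-HSC. The 18 endothelial markers summed to between 4241 and 4721 FPKM in pre-HSC, between 181 and 374 in ex-HSC and between 533 and 607 in FL-HSC, where 18, 16 and 15 of them averaged at least 1 FPKM. The 18 mesenchymal markers summed to between 1956 and 2149, between 517 and 629, and between 259 and 312 FPKM, with 18, 12 and 6 of them averaging at least 1 FPKM and Lum, Dcn, Lox and Mfap4 listed at 0 in both FL-HSC libraries. Vim, with means of 1319, 554 and 265 FPKM in pre-HSC, ex-HSC and FL-HSC, made up most of these mesenchymal sums. Against the direction of the sums, Pdgfrb and Thy1 had higher means in ex-HSC than in pre-HSC (5.76 against 3.72 and 3.95 against 1.70 FPKM). In bulk RNA, fewer cells of a type and less RNA per cell cannot be told apart.

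Proximal promoters of 4 genes are shown because the results below turn on them: 2 ligands that rose in ex-HSC (Wnt10b and Wnt9a), and the highest Frizzled and Sfrp genes of pre-HSC (Fzd4 and Sfrp2). Each runs from 250 bases before to 50 bases after the annotated start, 5′ to 3′ on the gene's strand, in RefSeq's GRCm38.p6, and capitals mark CG dinucleotides.
Wnt10b, chr15:98778101-98778400, minus strand: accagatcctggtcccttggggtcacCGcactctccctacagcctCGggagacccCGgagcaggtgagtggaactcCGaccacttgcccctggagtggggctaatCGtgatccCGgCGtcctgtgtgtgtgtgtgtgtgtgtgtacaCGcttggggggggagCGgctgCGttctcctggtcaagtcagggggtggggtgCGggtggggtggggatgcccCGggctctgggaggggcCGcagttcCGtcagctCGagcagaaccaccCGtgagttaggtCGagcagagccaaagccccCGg
Wnt9a, chr11:59306680-59306979, plus strand: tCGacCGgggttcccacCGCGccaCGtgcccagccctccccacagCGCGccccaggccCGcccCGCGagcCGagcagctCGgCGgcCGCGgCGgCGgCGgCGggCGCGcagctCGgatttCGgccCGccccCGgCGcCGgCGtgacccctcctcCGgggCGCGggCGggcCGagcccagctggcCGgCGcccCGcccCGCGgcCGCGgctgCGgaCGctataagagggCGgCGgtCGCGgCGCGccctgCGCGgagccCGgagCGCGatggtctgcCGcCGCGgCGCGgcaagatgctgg
Fzd4, chr7:89404116-89404415, plus strand: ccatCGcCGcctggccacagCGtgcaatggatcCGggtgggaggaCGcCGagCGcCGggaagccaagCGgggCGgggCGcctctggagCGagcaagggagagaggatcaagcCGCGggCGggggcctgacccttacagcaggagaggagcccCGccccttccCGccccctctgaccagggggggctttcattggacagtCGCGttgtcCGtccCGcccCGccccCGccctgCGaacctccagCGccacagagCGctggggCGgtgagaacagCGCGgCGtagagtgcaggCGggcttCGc
Sfrp2, chr3:83766071-83766370, plus strand: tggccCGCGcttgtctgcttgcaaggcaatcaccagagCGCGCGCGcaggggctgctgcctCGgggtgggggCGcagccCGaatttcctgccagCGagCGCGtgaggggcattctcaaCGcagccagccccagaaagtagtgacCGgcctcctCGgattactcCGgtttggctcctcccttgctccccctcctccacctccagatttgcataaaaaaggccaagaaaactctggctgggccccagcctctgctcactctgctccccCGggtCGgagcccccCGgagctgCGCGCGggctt
The Wnt10b window held 18 CG dinucleotides at 66.3% G and C, and 29.7% of the 32851 windows in the table held as many. The Wnt9a window held 58 at 83.3% G and C, a count reached by 0.11% of all windows. The Fzd4 window held 32, reached by 9.52%, and the Sfrp2 window held 22, reached by 23.1%. The 2 ligands that rose in ex-HSC therefore lay at different places in the range of CG content, and the values used here include no measurement at promoters. RefSeq's table matched 25 of the 37 genes with 28 windows, whose median was 26.5 CG dinucleotides against 7 in all windows. Both strands were searched for 5 short motifs that did not overlap one another in the 4 windows. CTTTGAT, a Tcf and Lef motif, was in 2 of the 28 windows and in 3.73% of all windows. GATAA, bound by the blood factor Gata2 and its relatives, was in 4 and in 25.4%, and TGTGGT, bound by Runx factors, in 2 and in 16.8%. CCGGAA, an Ets motif, was in 2 and in 14.9%, and TATAA in 5 and in 24.9%. Of the 4 windows shown, Wnt9a's held TATAA and the others held none of these letter strings.

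More of these genes were detected in pre-HSC than in the other groups. A mean of at least 1 FPKM was reached by 20 of the 37 in pre-HSC, by 8 in ex-HSC and by 9 in FL-HSC, where 37.9%, 35.3% and 35.5% of all genes did so. All 10 Frizzled genes reached it in pre-HSC, while 4 did in ex-HSC and 6 in FL-HSC. Of the 19 Wnt genes, 5, 3 and 1 reached it in the same order, of the 4 Sfrp genes 2, 1 and 1, and of the 4 Dkk genes 3, 0 and 1. Fzd4, Fzd6, Fzd7, Fzd9 and Sfrp2 reached it in all 3 groups. Wnt6, Fzd3, Fzd8 and Dkk1 reached it in pre-HSC and FL-HSC, and Wnt11 in pre-HSC and ex-HSC. A further 10 reached it in pre-HSC alone, namely Wnt2, Wnt5a, Wnt5b, Fzd1, Fzd2, Fzd5, Fzd10, Sfrp1, Dkk2 and Dkk3. Wnt9a and Wnt10b reached it in ex-HSC alone. The other 15 genes reached it in no group. They were Wnt1, Wnt2b, Wnt3, Wnt3a, Wnt4, Wnt7a, Wnt7b, Wnt8a, Wnt8b, Wnt9b, Wnt10a, Wnt16, Sfrp4, Sfrp5 and Dkk4. Every library of the group stood at or above 1 FPKM for 17, 7 and 7 genes in the same order. Listed at 0 in all libraries of the group were 3, 0 and 12 genes. The libraries also differed in genes above 0, with 24992 in ex-HSC replicate 2 and 15622 and 16234 in the 2 FL-HSC libraries. The matching share of all genes was not counted, so no difference is read from these zeros.

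**Figure D1:**
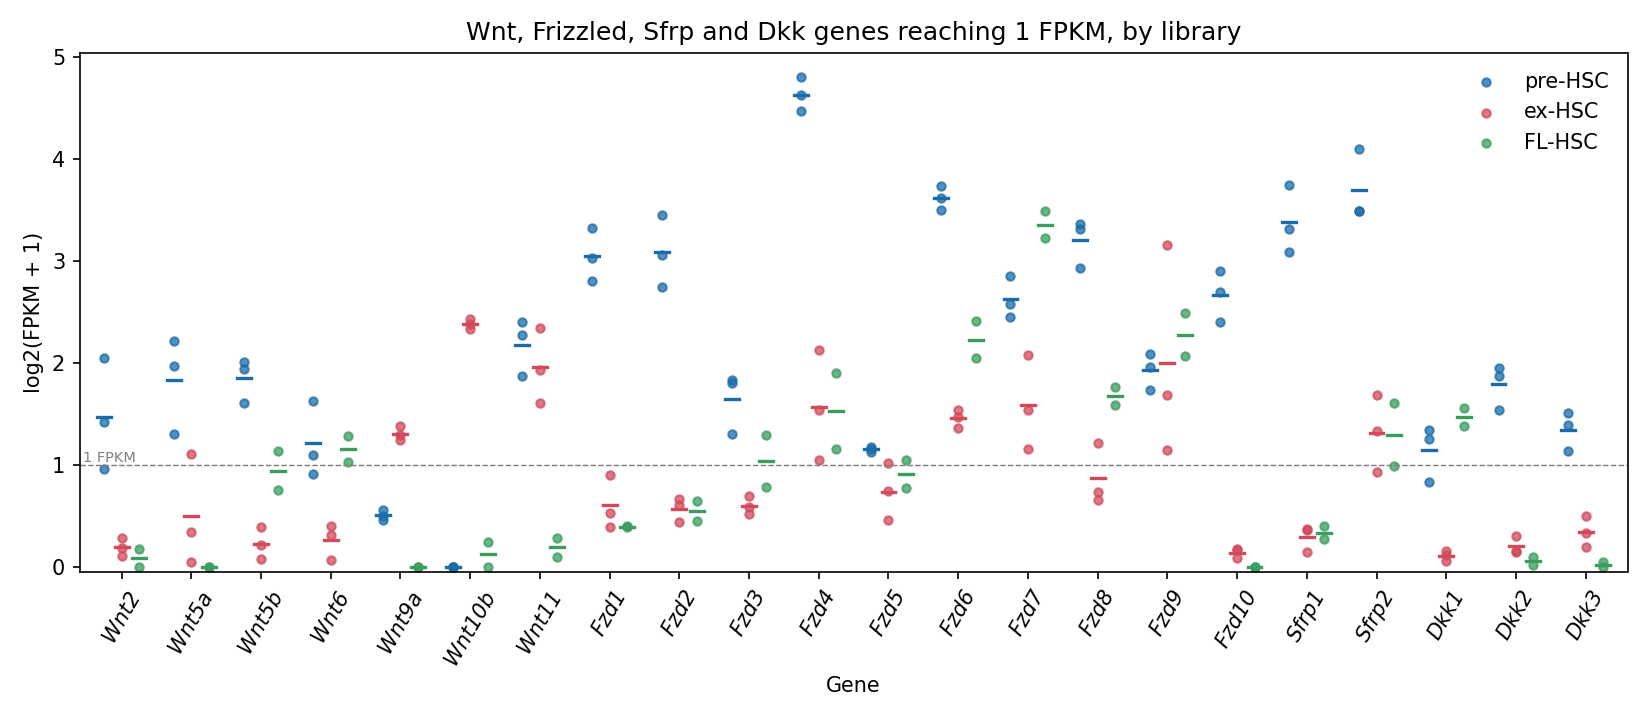
Level of each of the 22 genes that reached a mean of 1 FPKM in some group, on a log2(FPKM + 1) axis; points are libraries, short lines group means and the dashed line 1 FPKM. Most genes stand highest in the 3 pre-HSC libraries, Wnt9a and Wnt10b stand highest in ex-HSC, and Fzd7 stands highest in FL-HSC.

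Differences between groups were tested with limma on log2(FPKM + 1) over the 13720 genes that held 1 FPKM or more in 2 or more libraries, and a gene is said to have risen or fallen where its Benjamini-Hochberg adjusted p was under 0.05. Of the 37 genes, 22 passed the filter, and 10 of them averaged 1 FPKM in pre-HSC alone and 2 in ex-HSC alone, so their counts describe the genes and are no independent sign of a direction. From pre-HSC to ex-HSC, 2 of the 22 rose and 17 fell, where 15.7% of all genes tested rose and 28.4% fell. From pre-HSC to FL-HSC none of the 22 rose by limma's adjusted p, 1 (Fzd7) was higher at an unadjusted p under 0.05, and 14 fell, where 22.9% of all genes rose and 20.4% fell. In FL-HSC against ex-HSC, 6 of the 22 were higher and 3 lower, where 24.1% of all genes were higher and 9.15% lower. The count of 6 was 3 without ex-HSC replicate 3 or without FL-HSC replicate 1, and it was 2 without FL-HSC replicate 2. The median log2 difference of the 22 genes was -1.30, -1.39 and -0.02 in these comparisons, beside -0.16, 0.13 and 0.27 over all genes tested. The first and second comparisons share the pre-HSC libraries.

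**Figure D2:**
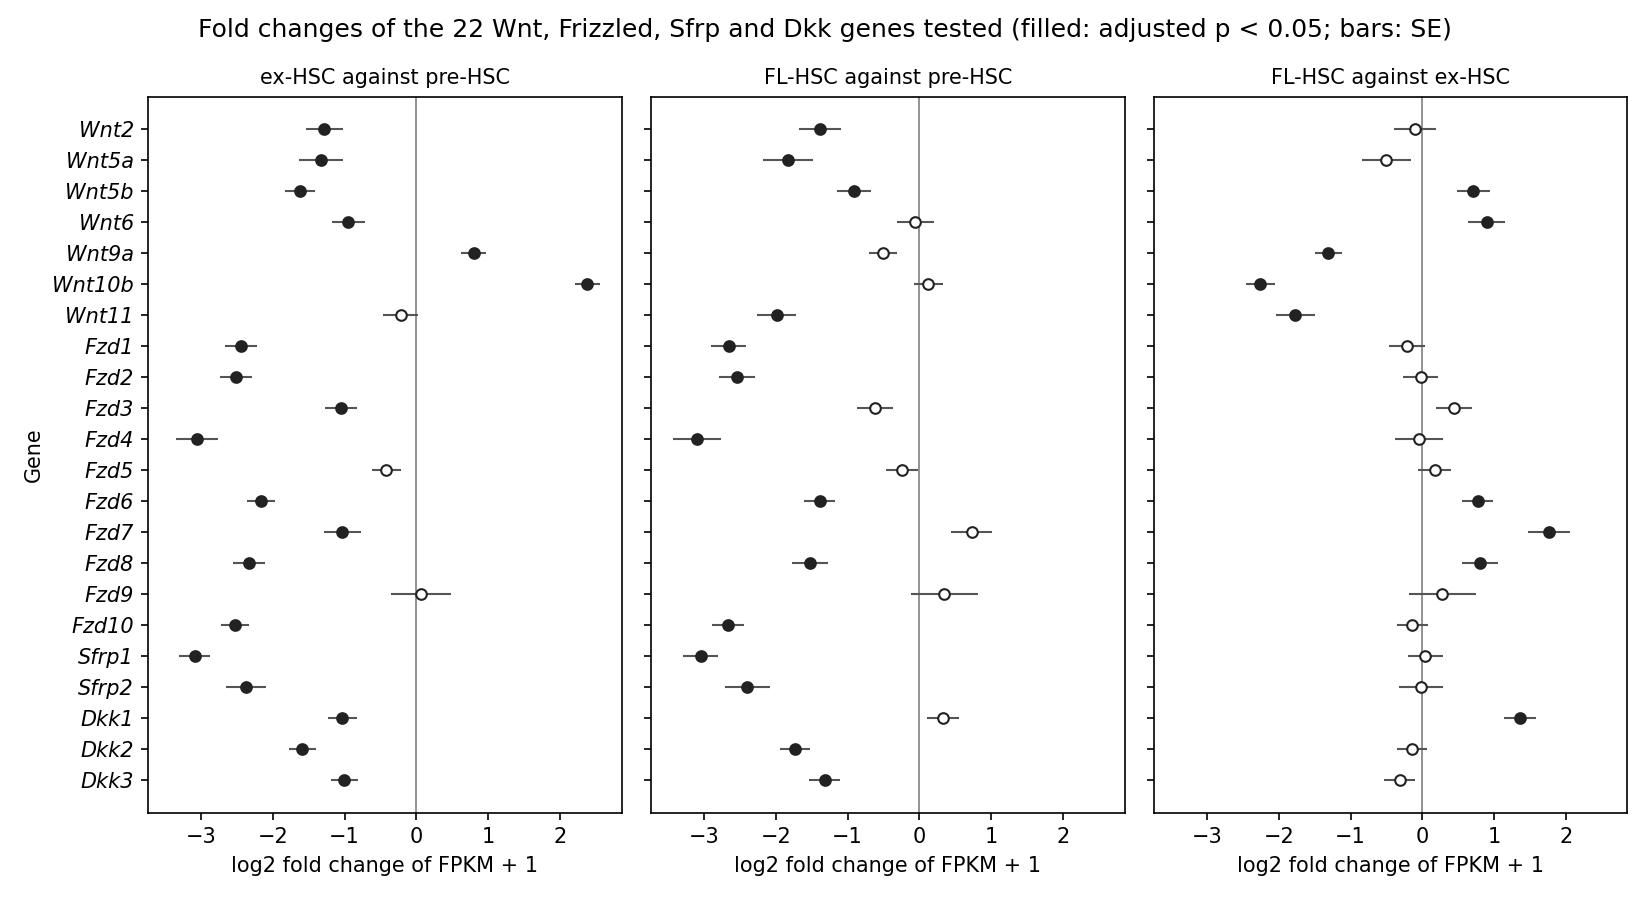
Log2 difference of FPKM + 1 for the 22 genes tested, in each of the 3 comparisons; circles are limma estimates, filled where the adjusted p is under 0.05, and bars are standard errors. From pre-HSC to ex-HSC 17 filled circles lie below 0 and 2 above, and in FL-HSC against ex-HSC 6 lie above 0 and 3 below.

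Among the ligands, the set detected differed from group to group. Pre-HSC held Wnt11, Wnt5a, Wnt5b, Wnt2 and Wnt6 above 1 FPKM, ex-HSC held Wnt10b, Wnt11 and Wnt9a, and FL-HSC held Wnt6. Summed over the 19 genes, Wnt expression was 15.5 ± 4.44 FPKM in pre-HSC (SD, n = 3), 10.7 ± 1.64 in ex-HSC (n = 3) and 2.82 ± 0.979 in FL-HSC (n = 2). The pre-HSC libraries held 20.2, 11.3 and 15.05 FPKM and the ex-HSC libraries 8.997, 12.2 and 10.98. These groups overlapped only through ex-HSC replicate 2, the library with 36 of the 37 genes above 0. Both FL-HSC libraries lay below them at 2.13 and 3.52.

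Wnt10b, a ligand known for promoting bone formation and restraining fat cell formation, was listed at 0 in all 3 pre-HSC libraries and stood at 4.40, 4.20 and 4.04 FPKM in ex-HSC. In FL-HSC it was listed at 0 in replicate 1 and at 0.189 FPKM in replicate 2. The ex-HSC libraries were close to each other and apart from all others. Wnt10b rose in ex-HSC by 2.38 ± 0.18 on the log2(FPKM + 1) scale (SE; limma adjusted p = 1.41e-06) and FL-HSC was below ex-HSC (log2 difference -2.26 ± 0.20, limma adjusted p = 2.75e-05). No fold is given against the pre-HSC zeros. The gene lies at chr15:98770712-98778150 on the minus strand (GRCm38). Wnt10b took 40% ± 7.83 of the summed Wnt FPKM in ex-HSC (SD, n = 3), the highest mean share there, although in replicate 3 Wnt11 stood slightly above it.

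The same 3 libraries held mast cell markers that, apart from Gata2, were low elsewhere. Gata2, also a blood factor, had means of 28.5, 70.3 and 71.5 FPKM in pre-HSC, ex-HSC and FL-HSC. It was the highest of the 9 markers in pre-HSC and FL-HSC and made up most of their sums. The 9 markers summed to between 2217 and 4796 FPKM in ex-HSC, against 30.8 to 37.2 in pre-HSC and 79.4 to 89.4 in FL-HSC. In pre-HSC 3 of the 9 averaged at least 1 FPKM and Mcpt4, Tpsb2, Tpsab1 and Fcer1a were listed at 0, and in FL-HSC 5 did and Tpsab1 and Fcer1a were listed at 0. All 9 were highest in ex-HSC replicate 1, where the mast cell protease Cpa3 stood at 1264 FPKM against 617 and 603. Of all genes that averaged at least 1 FPKM in ex-HSC, 50.7% were highest in replicate 1. Wnt10b was among them, at 4.40 FPKM against 4.20 and 4.04. Its neighbour on chromosome 15, Wnt1, lies 11.7 kb away on the opposite strand and reached 1 FPKM in no group. The part of mast cell RNA in the Wnt10b level was not tested.

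Wnt9a, which in zebrafish is needed for blood stem cells to form, stood at 0.470, 0.380 and 0.416 FPKM in pre-HSC, against 1.45, 1.37 and 1.61 in ex-HSC. It was listed at 0 in both FL-HSC libraries. The 3 groups did not overlap. The gene lies at chr11:59306928-59333552 on the plus strand. Wnt9a was 3.50-fold higher in ex-HSC than in pre-HSC by mean FPKM (log2 difference of FPKM + 1 0.80 ± 0.17 SE, limma adjusted p = 0.00311) and FL-HSC was below ex-HSC (-1.31 ± 0.19, limma adjusted p = 0.000659). Its difference between FL-HSC and pre-HSC just missed the threshold (-0.51 ± 0.19, limma adjusted p = 0.0530) and passed it in 9 of the alternatives tried. Wnt3a lies 16.2 kb away on the opposite strand of chromosome 11 and reached 1 FPKM in no group.

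Wnt11, a ligand known for its role in cell movement during gastrulation and in kidney branching, was detected in pre-HSC and ex-HSC. The gene lies at chr7:98835112-98855195 on the plus strand. It stood at 4.28, 2.65 and 3.82 FPKM in pre-HSC, at 2.05, 2.82 and 4.08 in ex-HSC, and at 0.0712 and 0.220 in FL-HSC. The pre-HSC and ex-HSC libraries overlapped, and both FL-HSC libraries were below all of them. The difference between ex-HSC and pre-HSC did not pass (log2 difference -0.22 ± 0.24 SE, limma adjusted p = 0.496). Wnt11 fell in FL-HSC, where its mean was 24.6-fold lower than in pre-HSC (-1.99 ± 0.27, limma adjusted p = 0.000189) and 20.5-fold lower than in ex-HSC (-1.77 ± 0.27, limma adjusted p = 0.000853). A processed pseudogene, Gm8398, overlaps a Wnt11 exon on the opposite strand, and whether the authors' counting used strand is not given.

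Wnt5a and Wnt5b, related ligands best known for signalling without beta-catenin, both fell from pre-HSC. Wnt5a stood at 2.92, 1.47 and 3.64 FPKM in pre-HSC, at 0.0336, 1.16 and 0.272 in ex-HSC, and was listed at 0 in both FL-HSC libraries. Its lowest pre-HSC library lay near its highest ex-HSC library, and the groups did not overlap. The log2 difference from pre-HSC was -1.33 ± 0.31 in ex-HSC (limma adjusted p = 0.00496) and -1.83 ± 0.34 in FL-HSC (limma adjusted p = 0.00158). An antisense gene, Gm2670, overlaps a Wnt5a exon. Wnt5b stood at 2.84, 2.05 and 3.03 FPKM in pre-HSC, at 0.165, 0.313 and 0.0555 in ex-HSC, and at 0.683 and 1.19 in FL-HSC. FL-HSC lay between the other groups with no overlap. Wnt5b fell 14.9-fold by mean in ex-HSC (log2 difference -1.62 ± 0.21, limma adjusted p = 8.71e-05) and 2.82-fold in FL-HSC (-0.91 ± 0.23, limma adjusted p = 0.00897). The FL-HSC call was lost without FL-HSC replicate 1 (-0.72, limma adjusted p = 0.0914). Wnt5b was higher in FL-HSC than in ex-HSC (0.71 ± 0.23, limma adjusted p = 0.0371), a call lost without ex-HSC replicate 1 or 3, without either FL-HSC library, and after median-of-ratios scaling (limma adjusted p = 0.0691).

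Wnt6, a ligand of epithelia and of developing heart and kidney, stood at 2.08, 0.880 and 1.14 FPKM in pre-HSC, at 0.321, 0.245 and 0.0474 in ex-HSC, and at 1.04 and 1.44 in FL-HSC. FL-HSC lay within the pre-HSC range, and all ex-HSC libraries were below both. Wnt6 fell in ex-HSC (log2 difference -0.95 ± 0.23 SE, limma adjusted p = 0.00608) and was 6.07-fold higher by mean in FL-HSC than in ex-HSC (0.90 ± 0.26, limma adjusted p = 0.0212). The FL-HSC call against ex-HSC was lost when ex-HSC replicate 3 or either FL-HSC library was left out. In FL-HSC Wnt6 took 44.8% of the summed Wnt FPKM and Wnt5b 33.0%, of a sum that was itself low. Wnt2, a ligand of lung and placental development, stood at 3.12, 1.67 and 0.945 FPKM in pre-HSC, at 0.0758, 0.138 and 0.219 in ex-HSC, and at 0.133 and 0 in FL-HSC. It was lower in all 5 later libraries than in any pre-HSC library, and it fell in ex-HSC (-1.28 ± 0.26, limma adjusted p = 0.00218) and in FL-HSC (-1.38 ± 0.29, limma adjusted p = 0.00307). Of the ligands below the filter, Wnt4 came nearest to it, with 1.59, 0.855 and 0.511 FPKM in pre-HSC and at most 0.411 elsewhere. Wnt9b, which lies 24.3 kb from Wnt3, stood at 0.946, 0.675 and 0.857 FPKM in pre-HSC, with at most 0.128 elsewhere. Wnt4 and Wnt9b were thus highest in pre-HSC as well, and neither was tested.

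**Figure D3:**
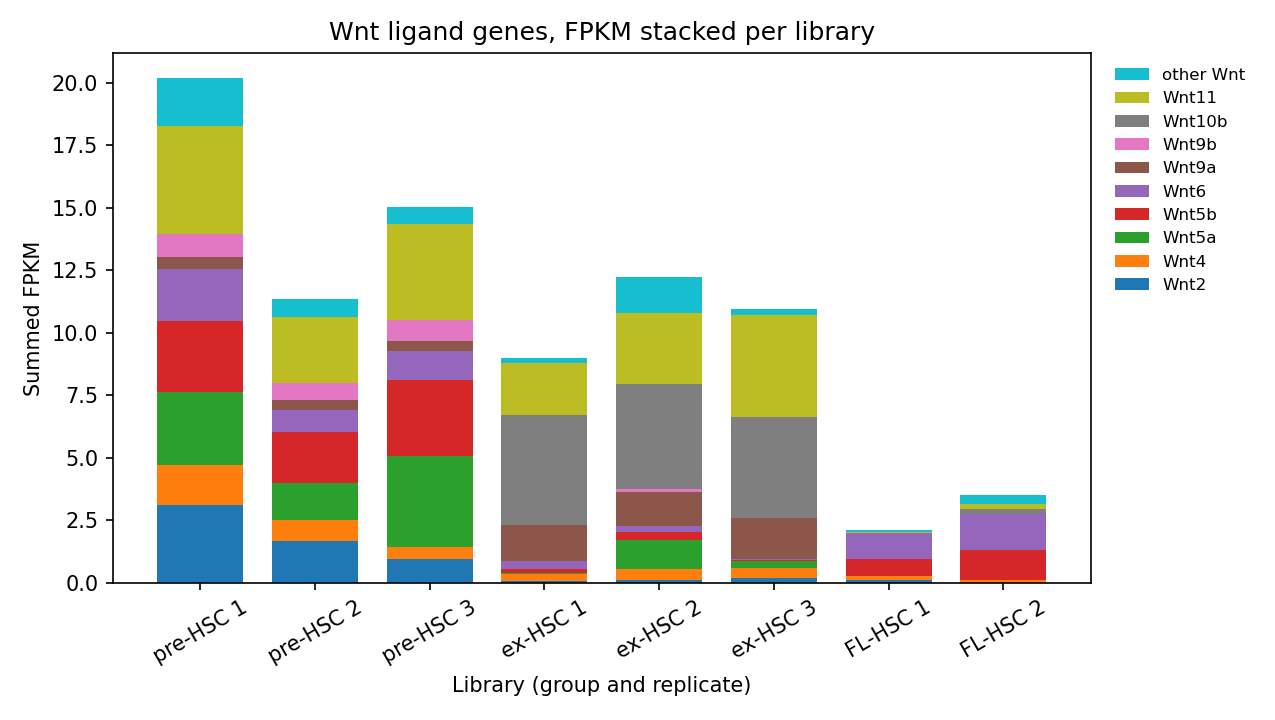
Summed FPKM of the 19 Wnt genes in each of the 8 libraries, stacked by gene from a zero baseline. Wnt10b, Wnt11 and Wnt9a make up most of the 3 ex-HSC stacks, and the FL-HSC stacks of 2.13 and 3.52 FPKM are mostly Wnt6 and Wnt5b.

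Frizzled expression was highest in pre-HSC and differed in make-up between the groups. Summed over the 10 receptors it was 79.9, 78.7 and 67.2 FPKM in the pre-HSC libraries, 15.02, 7.58 and 16.3 in the ex-HSC libraries, and 20.6 and 27.1 in the FL-HSC libraries. The groups did not overlap in this sum, whose means were 75.3 ± 7.05, 13.0 ± 4.70 and 23.8 ± 4.598 FPKM (SD). From pre-HSC to ex-HSC 8 receptors fell and 2 did not pass, where 28.4% of all genes tested fell. From pre-HSC to FL-HSC 6 fell and 4 did not pass, where 20.4% of all genes fell. In FL-HSC against ex-HSC 3 were higher and 7 did not pass, which is near the 24.1% of all genes that were higher. The summed level of the endothelial markers also stood highest in pre-HSC, at 4241 to 4721 FPKM, and its part in these falls was not tested.

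Fzd4, known as a receptor for Norrin in retinal vessels, was the highest of all 37 genes in pre-HSC, at 23.6, 26.8 and 21.1 FPKM. It stood at 3.37, 1.07 and 1.91 FPKM in ex-HSC and at 1.23 and 2.73 in FL-HSC. The later groups overlapped each other and lay far below pre-HSC. The gene lies at chr7:89404355-89413134 on the plus strand. By mean Fzd4 fell 11.3-fold in ex-HSC (log2 difference of FPKM + 1 -3.06 ± 0.30 SE, limma adjusted p = 1.09e-05) and 12.1-fold in FL-HSC (-3.10 ± 0.33, limma adjusted p = 3.26e-05). Its share of Frizzled FPKM was 31.7% ± 2.26 in pre-HSC, then 16.1% ± 5.63 in ex-HSC with 8.02% ± 2.91 in FL-HSC (SD). Tspan12, a membrane partner of Fzd4 in Norrin signalling, had means of 12.6 ± 2.20, 0.108 ± 0.0318 and 0.991 ± 0.241 FPKM (SD) and fell in both comparisons with pre-HSC (limma adjusted p = 1.77e-07 in ex-HSC and 4.40e-06 in FL-HSC).

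Fzd7, a receptor with known roles in gut stem cells and early development, ran in another order. It stood at 6.23, 4.45 and 4.95 FPKM in pre-HSC, at 3.22, 1.23 and 1.90 in ex-HSC, and at 8.33 and 10.2 in FL-HSC. The groups did not overlap, with FL-HSC highest and ex-HSC lowest. The gene lies at chr1:59482424-59486955 on the plus strand. Fzd7 fell 2.46-fold by mean in ex-HSC (log2 difference -1.03 ± 0.26 SE, limma adjusted p = 0.00735), and in FL-HSC it was 4.38-fold higher than in ex-HSC (1.77 ± 0.29, limma adjusted p = 0.00121). That latter call held in every alternative tried. Against pre-HSC, both FL-HSC libraries were higher, and the difference missed the threshold (0.73 ± 0.29, limma adjusted p = 0.0604). It passed without ex-HSC replicate 1 or 2, which enter the shared estimate of spread. Fzd7 took 6.94% ± 1.13 of Frizzled FPKM in pre-HSC (SD), compared with 16.5% ± 4.88 in ex-HSC and with 39.1% ± 1.88 in FL-HSC.

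Fzd1 and Fzd2, close relatives, fell in both later groups. Fzd1 stood at 8.97, 7.18 and 6.00 FPKM in pre-HSC, at 0.875, 0.311 and 0.443 in ex-HSC, and at 0.319 and 0.312 in FL-HSC. Fzd2 stood at 9.92, 5.72 and 7.31 FPKM in pre-HSC, at 0.584, 0.522 and 0.355 in ex-HSC, and at 0.565 and 0.363 in FL-HSC. Every later library of both genes was under 1 FPKM, and every pre-HSC library was above 5. The log2 difference of Fzd1 was -2.44 ± 0.22 in ex-HSC (limma adjusted p = 5.77e-06) and -2.66 ± 0.24 in FL-HSC (limma adjusted p = 1.06e-05). The log2 difference of Fzd2 was -2.51 ± 0.22 (limma adjusted p = 5.11e-06) and -2.54 ± 0.25 (limma adjusted p = 1.65e-05). Fzd10, a receptor studied in neural development and tumours, showed the largest mean ratio of the 10 receptors in ex-HSC. It stood at 5.49, 6.45 and 4.28 FPKM in pre-HSC, against 0.0607, 0.123 and 0.129 in ex-HSC, and it was listed at 0 and at 6.44e-07 FPKM in FL-HSC. No library outside pre-HSC came near the pre-HSC range, and Fzd10 fell 52.0-fold by mean in ex-HSC (-2.52 ± 0.19, limma adjusted p = 1.80e-06) and fell in FL-HSC (-2.67 ± 0.22, limma adjusted p = 4.43e-06).

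Fzd6 and Fzd8 fell from pre-HSC and stood higher in FL-HSC than in ex-HSC. Fzd6, known for orienting hairs and cells in the plane of the skin, stood at 10.3, 12.3 and 11.3 FPKM in pre-HSC, at 1.90, 1.57 and 1.77 in ex-HSC, and at 3.13 and 4.31 in FL-HSC. Fzd8 stood at 9.29, 8.92 and 6.60 FPKM in pre-HSC, at 1.33, 0.667 and 0.578 in ex-HSC, and at 2.40 and 2.01 in FL-HSC. For both genes the 3 groups were ordered without overlap. Fzd6 fell 6.45-fold by mean in ex-HSC (log2 difference -2.16 ± 0.20 SE, limma adjusted p = 6.26e-06) and 3.03-fold in FL-HSC (-1.39 ± 0.22, limma adjusted p = 0.000502). Fzd8 fell 9.65-fold in ex-HSC (-2.33 ± 0.23, limma adjusted p = 1.06e-05) and 3.76-fold in FL-HSC (-1.52 ± 0.25, limma adjusted p = 0.000699). In FL-HSC against ex-HSC the log2 difference was 0.77 ± 0.22 for Fzd6 (limma adjusted p = 0.0207). The Fzd6 call was lost without FL-HSC replicate 2, with a replicate block (limma adjusted p = 0.0524) and with 2 groups per fit (limma adjusted p = 0.0599). For Fzd8 the log2 difference was 0.80 ± 0.25 (limma adjusted p = 0.0319). That call was lost without ex-HSC replicate 2 or 3, without either FL-HSC library, and after median-of-ratios scaling (limma adjusted p = 0.0644). The share of Fzd6 in Frizzled FPKM was 15.1% ± 2.01, 14.8% ± 5.27 and 15.6% ± 0.487 in pre-HSC, ex-HSC and FL-HSC (SD), with the ex-HSC libraries at 12.6%, 20.8% and 10.9%.

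Fzd3, a receptor of axon guidance, stood at 2.57, 2.50 and 1.48 FPKM in pre-HSC, at 0.437, 0.4996 and 0.625 in ex-HSC, and at 0.718 and 1.46 in FL-HSC. It fell in ex-HSC (log2 difference -1.05 ± 0.22 SE, limma adjusted p = 0.00302), and its FL-HSC value did not pass (-0.61 ± 0.25, limma adjusted p = 0.0699). That value passed without pre-HSC replicate 3 and with array weights (limma adjusted p = 0.0396). It also passed after median-of-ratios scaling and scaling to equal totals (limma adjusted p = 0.0376 and 0.0447). Without FL-HSC replicate 2 the log2 difference was -0.87. Fzd5, a receptor needed for yolk sac vessels, stood at 1.23, 1.19 and 1.25 FPKM in pre-HSC, at 1.02, 0.372 and 0.671 in ex-HSC, and at 0.712 and 1.07 in FL-HSC. Pre-HSC was narrowly highest, exons of Fzd5 and Fzd6 are overlapped on the opposite strand by Gm38058 and Gm26704, and neither comparison with pre-HSC passed (limma adjusted p = 0.123 and 0.415). Fzd9, which in mouse takes part in B cell and bone development, stood at 2.33, 3.24 and 2.89 FPKM in pre-HSC, at 2.22, 1.22 and 7.90 in ex-HSC, and at 3.18 and 4.6 in FL-HSC. Its ex-HSC libraries spread on both sides of the other groups, and the high value was in replicate 3. None of its 3 differences passed (limma adjusted p = 0.907, 0.575 and 0.687). Without ex-HSC replicate 3 the log2 difference of Fzd9 from pre-HSC to ex-HSC changed from 0.07 to -0.51.

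**Figure D4:**
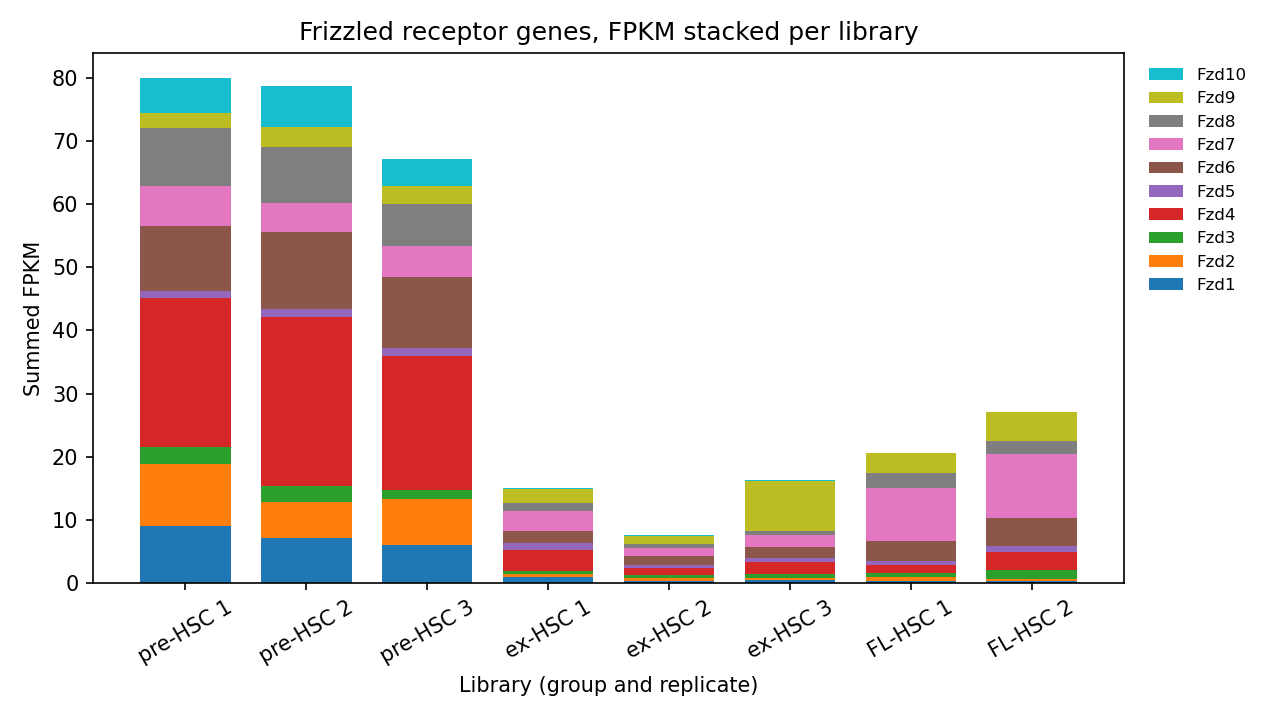
Summed FPKM of the 10 Frizzled genes in each of the 8 libraries, stacked by gene from a zero baseline. Fzd4 is the widest band in the 3 pre-HSC stacks and Fzd7 in both FL-HSC stacks, and Fzd9 fills much of the ex-HSC replicate 3 stack at 7.90 FPKM.

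The Sfrp inhibitors stood highest in pre-HSC, with a sum of 22.2 ± 5.88 FPKM there, 1.83 ± 0.515 in ex-HSC and 2.22 ± 1.14 in FL-HSC (SD). Sfrp1 stood at 12.4, 7.51 and 8.91 FPKM in pre-HSC, at 0.293, 0.288 and 0.106 in ex-HSC, and at 0.319 and 0.210 in FL-HSC. Sfrp2 stood at 16.1, 10.3 and 10.2 FPKM in pre-HSC, at 1.51, 0.909 and 2.21 in ex-HSC, and at 0.982 and 2.05 in FL-HSC. For both genes the later groups overlapped each other and not pre-HSC. Sfrp1 lies at chr8:23411502-23449632 and Sfrp2 at chr3:83766321-83774316, both on the plus strand. Sfrp1 fell 42.0-fold by mean in ex-HSC (log2 difference -3.09 ± 0.22 SE, limma adjusted p = 9.43e-07) and 36.3-fold in FL-HSC (-3.04 ± 0.24, limma adjusted p = 3.77e-06). Sfrp2 fell 7.89-fold (-2.38 ± 0.28, limma adjusted p = 4.30e-05) and 8.06-fold (-2.40 ± 0.31, limma adjusted p = 0.000131). An antisense gene, Gm26771, overlaps an Sfrp2 exon. Sfrp4 and Sfrp5 were below the filter, with at most 0.735 FPKM for Sfrp4, in FL-HSC replicate 2, and at most 0.340 for Sfrp5, in pre-HSC replicate 1.

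Among the Dickkopf inhibitors, Dkk1 ran in a different order from Dkk2 and Dkk3. Dkk1, the best known blocker of Lrp5 and Lrp6, stood at 1.53, 0.783 and 1.38 FPKM in pre-HSC, at 0.112, 0.0878 and 0.0397 in ex-HSC, and at 1.603 and 1.95 in FL-HSC. FL-HSC was highest and ex-HSC lowest, without overlap. The gene lies at chr19:30545863-30549665 on the minus strand. Dkk1 fell 15.4-fold by mean in ex-HSC (log2 difference -1.03 ± 0.20 SE, limma adjusted p = 0.00157) and was 22.3-fold higher in FL-HSC than in ex-HSC (1.36 ± 0.22, limma adjusted p = 0.00125). That second call held in every alternative that kept Dkk1 in the fit. Its difference from pre-HSC to FL-HSC did not pass (0.33 ± 0.22, limma adjusted p = 0.255), but with quantile normalization it did (0.63, limma adjusted p = 0.0183). Dkk2 stood at 2.67, 1.91 and 2.87 FPKM in pre-HSC, at 0.104, 0.237 and 0.116 in ex-HSC, and at 0.0701 and 0.0123 in FL-HSC. Dkk3, a divergent member of the family, stood at 1.85, 1.62 and 1.20 FPKM, at 0.257, 0.412 and 0.145, and at 0 and 0.0340 in the same order. All later libraries of both genes were below every pre-HSC library. Dkk2 fell by a log2 difference of -1.59 ± 0.19 in ex-HSC (limma adjusted p = 5.21e-05) and -1.73 ± 0.21 in FL-HSC (limma adjusted p = 8.77e-05), and Dkk3 by -1.004 ± 0.19 (limma adjusted p = 0.00136) and -1.32 ± 0.21 (limma adjusted p = 0.000560). Dkk4 was at most 0.355 FPKM, in ex-HSC replicate 3.

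The libraries of a group did not rank alike for these genes. Of the 20 that averaged at least 1 FPKM in pre-HSC, 12 were highest in replicate 1, 4 in replicate 2 and 4 in replicate 3, where 30.5%, 29.4% and 40.1% of all such genes were. Wnt2, Wnt6, Fzd1, Fzd2, Sfrp1 and Sfrp2 were among the 12, and Fzd4, Fzd6, Fzd9 and Fzd10 made up the 4 of replicate 2. Of the mesenchymal markers 15 of 18 were highest in replicate 1, among them Col1a1 at 150, 58.2 and 83.0 FPKM, as were 5 of the 6 neural and epithelial markers above 1 FPKM (Epcam, Krt8, Krt18, Cdh1 and Sox10). Of the endothelial markers 15 of 18 were highest in replicate 2, and of the 11 macrophage markers above 1 FPKM in pre-HSC 10 were highest in replicate 3. Of the 8 genes that averaged at least 1 FPKM in ex-HSC, 4, 0 and 4 were highest in replicates 1, 2 and 3. Of all such genes 50.7%, 4.68% and 44.6% were, so ex-HSC replicate 2 was seldom highest for any gene. Its summed FPKM was 553227, against 727461 and 734815 in replicates 1 and 3. Of the 9 genes that averaged at least 1 FPKM in FL-HSC, 8 were highest in replicate 2, where 49.6% of all such genes were. In FL-HSC all 8 hepatocyte and all 12 macrophage markers above 1 FPKM were highest in replicate 1. The part of these other cells in the levels was not tested.

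Other genes of the pathway were taken by list, and each count below is read beside the shares of all genes tested: 15.7% rose and 28.4% fell in ex-HSC, 22.9% rose and 20.4% fell in FL-HSC, and 24.1% were higher and 9.15% lower in FL-HSC against ex-HSC. Of 10 co-receptors and alternative receptors tested, all 10 fell from pre-HSC to ex-HSC, 7 fell in FL-HSC, and 5 were higher in FL-HSC than in ex-HSC. The medians of this list were -1.76, -1.03 and 0.73 on the log2 scale, beside -0.16, 0.13 and 0.27 over all genes tested. Lrp5 had means of 51.9 ± 0.815, 16.6 ± 6.93 and 25.0 ± 1.96 FPKM in pre-HSC, ex-HSC and FL-HSC (SD), and fell in both comparisons with pre-HSC (limma adjusted p = 0.000591 and 0.0220). Lrp6 had means of 14.9 ± 2.38, 6.85 ± 2.20 and 17.7 ± 3.89 FPKM, and fell in ex-HSC (limma adjusted p = 0.00509), while FL-HSC against pre-HSC did not pass (limma adjusted p = 0.517). Ryk, a receptor that binds Wnt ligands on its own, had means of 21.9 ± 1.38, 3.41 ± 0.779 and 18.2 ± 0.298 FPKM, and was higher in FL-HSC than in ex-HSC (limma adjusted p = 6.89e-05). Gpr124, which acts with Reck in brain vessels, had means of 66.8 ± 4.70, 2.17 ± 1.23 and 7.08 ± 0.283 FPKM and fell in both comparisons with pre-HSC (limma adjusted p = 4.23e-07 and 2.58e-05).

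Of 5 genes of Wnt secretion tested, 3 fell in ex-HSC and 2 in FL-HSC, with medians of -0.71 and -0.49 beside -0.16 and 0.13 over all genes tested. Porcn, the enzyme that adds the lipid to Wnt, had means of 3.23 ± 0.296, 0.459 ± 0.213 and 1.54 ± 0.388 FPKM, and Wls, the carrier that brings Wnt to the surface, had means of 33.3 ± 2.11, 8.99 ± 2.82 and 17.5 ± 1.91 FPKM. Both fell in ex-HSC (limma adjusted p = 9.66e-05 for Porcn and 9.01e-05 for Wls) and in FL-HSC (limma adjusted p = 0.0203 and 0.0179), and both were higher in FL-HSC than in ex-HSC (limma adjusted p = 0.0196 and 0.0203). Ex-HSC, in which Wnt10b and Wnt9a rose, thus held the lowest mean of both. The list of Rspondins, Lgr receptors and the ligases they act on had 5 genes tested, with medians of -0.80 and -0.50. In ex-HSC Rspo1, Rspo3 and Lgr4 fell and the ligases Rnf43 and Znrf3 did not pass, and in FL-HSC Rspo1 and Rspo3 fell. Rspo3, a secreted enhancer of Wnt signalling, fell from 6.77 ± 0.870 FPKM to 0.101 ± 0.0516 and 0.1004 ± 0.00276 FPKM (limma adjusted p = 5.74e-07 and 2.18e-06). Of 8 genes tested from the list of other extracellular inhibitors, 7 fell and 1 rose in ex-HSC, and 6 fell and 1 rose in FL-HSC, with medians of -1.83 and -1.66. The gene that rose was Dkkl1, a Dickkopf-related gene best known from testis, with means of 0.846 ± 0.307, 10.8 ± 2.95 and 10.4 ± 1.70 FPKM (limma adjusted p = 7.10e-06 and 2.58e-05). The list also holds Cthrc1, a secreted glycoprotein known to promote the polarity branch rather than to inhibit it. Cthrc1 fell from 16.8 ± 3.41 FPKM to 0.236 ± 0.209 FPKM in ex-HSC (limma adjusted p = 2.12e-07) and was listed at 0 in both FL-HSC libraries.

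Inside the cell the lists were more mixed. Of 26 genes of the beta-catenin core tested, 12 fell and 1 rose in ex-HSC, 5 fell and 3 rose in FL-HSC, and 9 were higher in FL-HSC than in ex-HSC, with medians of -0.48, 0.04 and 0.43. The 5 falls and 3 rises in FL-HSC came to no larger a share than over all genes tested, where 20.4% fell and 22.9% rose. Ctnnb1, which encodes beta-catenin, had means of 479 ± 30.3, 164 ± 29.2 and 202 ± 12.6 FPKM and fell in both comparisons with pre-HSC (limma adjusted p = 3.78e-05 and 0.000551). Frat2, an inhibitor of the kinase Gsk3, had means of 7.21 ± 0.771, 13.1 ± 3.99 and 40.4 ± 0.768 FPKM and rose in both (limma adjusted p = 0.0240 and 4.26e-05). Of 11 Tcf and Lef factors and co-repressors, 7 fell and 2 rose in ex-HSC, and 5 fell and 1 rose in FL-HSC, with medians of -1.02 and -0.46. Tcf7 had means of 6.30 ± 1.02, 16.9 ± 3.13 and 0.999 ± 0.591 FPKM. It rose in ex-HSC (limma adjusted p = 0.00117) and fell in FL-HSC (limma adjusted p = 0.000233). Lef1 had means of 8.27 ± 0.396, 0.618 ± 0.369 and 0.0102 ± 0.0144 FPKM and fell in both (limma adjusted p = 3.64e-06 and 2.55e-06). These related factors thus ran in opposite directions in ex-HSC.

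Of 18 beta-catenin target genes tested, 11 fell and 2 rose in ex-HSC, and 14 fell and 2 rose in FL-HSC. With FL-HSC set against ex-HSC, 3 were higher and 5 lower. The medians of the list were -0.95, -1.83 and -0.45. Some targets, among them Axin2, Apcdd1, Lef1 and Tcf7, are also in the lists above, so the counts are not independent. Sox17 and Twist1 are also among the endothelial and mesenchymal markers. The part of endothelial and mesenchymal RNA in these falls was not tested. Axin2, a widely used readout of beta-catenin signalling, had means of 2.71 ± 0.738, 0.832 ± 0.107 and 0.729 ± 0.427 FPKM and fell in both comparisons with pre-HSC (limma adjusted p = 0.00397 and 0.00472). Nkd1, a feedback inhibitor, had means of 4.53 ± 0.710, 2.001 ± 0.708 and 0.618 ± 0.286 FPKM and fell in both (limma adjusted p = 0.00896 and 0.000303). Sox17, also an endothelial transcription factor, had means of 37.1 ± 7.47, 0.537 ± 0.203 and 0.0335 ± 0.0473 FPKM and fell in both (limma adjusted p = 5.17e-08 and 1.17e-07). Myc, a growth regulator with many other inputs, rose in FL-HSC, from 29.6 ± 4.18 FPKM to 133 ± 16.6 FPKM (limma adjusted p = 0.000517). Of 21 genes of the planar polarity and calcium branch tested, 11 fell and 1 rose in ex-HSC, 9 fell and 1 rose in FL-HSC, and 5 were higher and 1 lower when FL-HSC was set against ex-HSC, with medians of -0.62, -0.30 and 0.21. The 5 higher of 21 is near the 24.1% of all genes tested. Vangl1, a core polarity protein, had means of 13.2 ± 2.40, 1.31 ± 0.372 and 6.20 ± 1.51 FPKM (limma adjusted p = 4.32e-06 and 0.00967 against pre-HSC). Ankrd6, a polarity gene also called Diversin, rose in ex-HSC from 1.52 ± 0.0898 FPKM to 5 ± 0.890 FPKM (limma adjusted p = 0.000387).

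**Figure D5:**
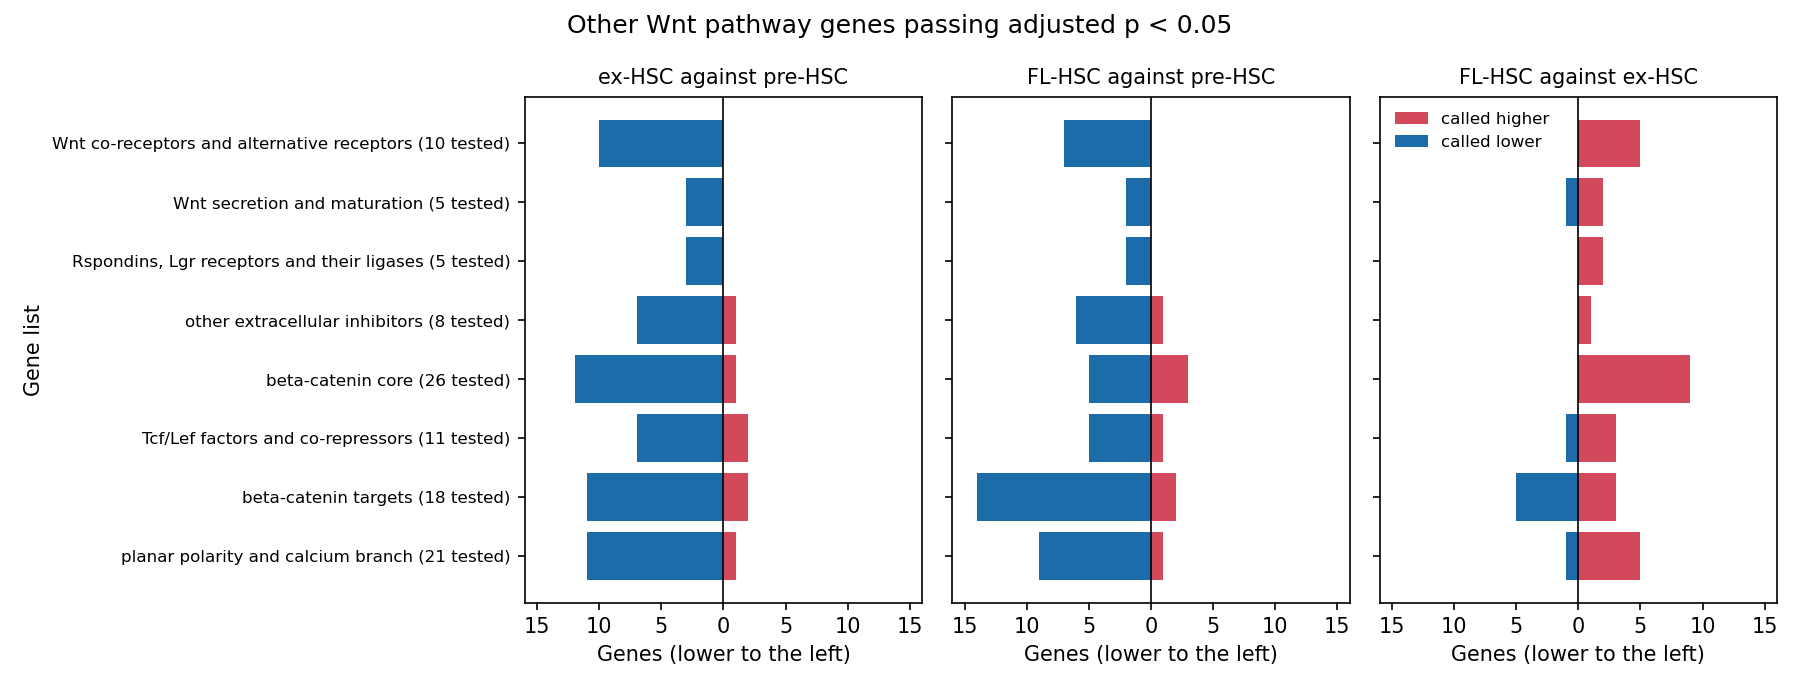
Number of genes of 8 other Wnt pathway lists that passed an adjusted p of 0.05 in each comparison, lower to the left and higher to the right of 0. All 10 co-receptors tested lie to the left in ex-HSC against pre-HSC, and in FL-HSC against ex-HSC 9 genes of the beta-catenin core lie to the right and none to the left.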

How the data were processed

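Poly(A)-selected, paired-end RNA libraries were analysed from the FPKM table that the authors deposited, one value per gene and library, per the file headers. The submitters' processing notes name Cufflinks, featureCounts, edgeR, DESeq and mm9, without versions or roles. Strand use in counting is not given in the sources used here. The table held 33531 rows, of which 27 carried dates for gene symbols and were left out. Depth is unknown, since there are no counts: no more than 3.13% of low genes shared the most frequent ratio between libraries, so whole reads could not be recovered.

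Values were tested as log2(FPKM + 1) with limma 3.58.1 in R 4.3.3, in 1 model with a mean per group over all 8 libraries, a trended prior variance and Benjamini-Hochberg adjustment over the 13720 genes that held 1 FPKM or more in 2 or more libraries. A fold change on this scale understates the change of low genes; folds in the text are ratios of mean FPKM. The fit was tested on simulated data. Alternatives changed the pseudocount, filter, scaling, variance model, threshold and libraries. Genes with a mean of at least 1 FPKM in some group are given by library; of each pathway list, genes fixed by name or among the largest called changes are given. The genes and lists were chosen with earlier results of these data known. Positions, neighbours and overlaps are from GENCODE M21 (GRCm38) by symbol, since the table has no coordinates.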

Additional observations from a re-analysis of the deposited data

How the results depend on the processing

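The 3 comparisons were recomputed for each of the 22 genes under every alternative, and no value that changed sign passed the threshold in the new direction. The shares of all genes under the alternatives were not counted, so the counts in this paragraph describe these genes only. With a mean of at least 2 FPKM in place of 1, 5 genes reached it in ex-HSC and 4 in FL-HSC. A filter of 5 FPKM, which tests fewer genes, left 0 higher and 9 lower in ex-HSC against pre-HSC, 8 lower in FL-HSC against pre-HSC, and 3 higher and 0 lower in FL-HSC against ex-HSC. Higher in FL-HSC against pre-HSC were 2 genes with quantile normalization, 1 with 2 groups per fit, and 0 to 1 when a library was left out. Higher in FL-HSC against ex-HSC were 3 with no filter, 2 at an adjusted p under 0.01, and 2 to 6 when a library was left out. Correlations of deviations ran from -0.11 to 0.14 between libraries of the same replicate number and from -0.23 to 0.23 between those of different numbers. With 2 or 3 libraries per group they cannot decide whether equal numbers share a litter or culture. A replicate block gave 3 higher in FL-HSC against ex-HSC and log2 differences of -0.012 for Sfrp1 and 0.022 for Sfrp2 there. The Fzd8 call there was also lost with array weights, no filter and the block (adjusted p 0.0563, 0.0948 and 0.0747). Rescaling moved the median of all genes: in ex-HSC against pre-HSC it was -0.16 as deposited, -0.016 after median-of-ratios scaling, 0.084 after quantile normalization and -0.35 after scaling to equal totals.

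For the log2 differences that changed sign, the cause was not tested. With quantile normalization they were 0.020 for Dkk2 and 0.076 for Fzd2 (FL-HSC against ex-HSC), 0.11 for Fzd5 and 0.28 for Wnt6 (FL-HSC against pre-HSC), and 0.26 for Wnt11 (ex-HSC against pre-HSC). Array weights gave 0.014 for Fzd2 and -0.22 for Fzd9 in FL-HSC against ex-HSC, median-of-ratios scaling -0.031 for Sfrp1 there, and scaling to equal totals -0.122 for Fzd9 in ex-HSC against pre-HSC. Left-out libraries gave, in FL-HSC against ex-HSC, -0.12 to 0.077 for Fzd2, -0.42 to 0.33 for Fzd4, -0.15 to 0.86 for Fzd9, -0.031 to 0.11 for Sfrp1, and -0.33 to 0.29 for Sfrp2. They gave -0.51 to 0.49 for Fzd9 in ex-HSC against pre-HSC and -0.20 to 0.15 for Wnt6 in FL-HSC against pre-HSC. FL-HSC had 2 libraries, and with no counts the precision of levels near 1 FPKM is unknown.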
